A study of Mus musculus with 11 samples.

Results

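The genes described here are 38 markers of neutrophils and their precursors, the granulocyte lineage of the blood, chosen by symbol, with earlier results of these data known. Of the 38, 37 were among the 14739 genes of the deposited table, and Gfi1, a transcription factor of granulocyte precursors, was not analysed here. RNA was sequenced in bulk from cells sorted by the microglial surface protein Tmem119 from the cerebrum of aged C57BL/6 mice. The series asked how loss of a copy of Csf1r, of Csf2 or of both affects microglia, the resident macrophages of the brain. The 11 libraries formed 4 groups, which are named as in the sample labels. WT was wild type (n = 3), Csf1r_het was Csf1r+/- (n = 3), Csf2het was Csf2+/- (n = 3) and Dhet carried both deletions, Csf1r+/-; Csf2+/- (n = 2). The mice were 21 months old, except Csf1r_het replicate 1 (20 months), Csf1r_het replicate 2 (24 months) and Dhet replicate 2 (24 months). The labels name no promoter or cell type to which the deletions were restricted. Whether each library came from its own mouse is not stated in the labels, and p-values measure the spread between these libraries.

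Neutrophils mature in the bone marrow in steps, and each step fills its own kind of granule. Promyelocytes make the primary (azurophil) granules with myeloperoxidase and serine proteases, myelocytes and metamyelocytes then make the secondary (specific) granules with lactoferrin and cathelicidin, and mature cells make gelatinase granules and the receptors that carry them into blood and tissue. The brain parenchyma normally holds few neutrophils, while skull marrow, meninges and blood vessels lie close to it. Csf2 encodes GM-CSF, a growth factor for granulocytes and macrophages, and the product of Csf1r is the receptor through which CSF-1 and IL-34 keep microglia alive.

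Between 21037819 and 53081638 reads were assigned to genes, so that 1 read was worth 0.479 to 1.48 normalized counts, the unit of the deposited table. Haemoglobin genes took 16.1% to 58.8% of the counts, most in Csf1r_het replicate 2, which also had the most genes at 0 (15.6%, against 4.98% to 9.88% elsewhere). Dhet replicate 2 held 4.02 normalized counts of the female-specific Xist and 717 of the Y-linked Ddx3y, whereas the other libraries held at least 3011 of Xist and at most 16.3 of Ddx3y. Csf1r ran from 17017 to 40567 normalized counts in the 5 libraries from mice with a deleted copy and from 41261 to 93319 in the other 6. Tmem119 ran from 5432 (WT replicate 2) to 31939 (Csf2het replicate 2), and no microglial marker of 10 was at 0 in any library, so the labelled cell type was present throughout. The 37 granulocyte genes together took 0.0588% (Csf1r_het replicate 2) to 3.57% (Dhet replicate 2) of the counts. In bulk samples such as these, fewer cells of a type and less RNA per cell cannot be told apart.

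Granulocyte transcripts were present in every library, and their level varied over a very wide range. All 37 genes passed the filter on low values, a mean of at least 10 normalized counts over the 11 libraries. Summed over the 37 genes, the WT libraries held 101197, 317660.5 and 957096 normalized counts, the Csf1r_het libraries 137684, 38378 and 536248, the Csf2het libraries 219523, 135422 and 191926, and the Dhet libraries 795699 and 869808. WT replicate 3, Csf1r_het replicate 3 and both Dhet libraries were the high ones, and the WT and Csf1r_het libraries between them covered the whole range. Per kilobase of exon, the most abundant of the 37 were S100a9 and S100a8, with means over the 11 libraries of 177344 and 168153 normalized counts per kilobase, followed by Ngp (51876), Camp (29239) and Retnlg (12142). The lowest was Mmp25, with 13.8 normalized counts per kilobase. The ratio of the highest to the lowest library was 12.1 for Mcemp1, the smallest of the 37, and 5183 for Mpo, and 7 genes were at 0 in at least 1 library.

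Libraries of the same genotype differed widely in these genes. The median SD of log2 level over the 37 genes was 1.98 in WT and 1.96 in Csf1r_het, against 0.664 and 0.564 over all genes tested. In Csf2het it was 1.06 against 0.489, and in Dhet, with 2 libraries, 0.426 against 0.463. WT replicate 3 was the highest WT library for 33 of the 37 genes, and WT replicate 2 for the other 4 (Pglyrp1, Mcemp1, Clec4d and Stfa2l1). Csf1r_het replicate 3 was the highest of its group for 31 genes, and Csf1r_het replicate 2, the library with the most haemoglobin, was the lowest for 28. Dhet replicate 2 exceeded Dhet replicate 1 for 28 genes. In Csf2het the order was more mixed, with replicate 1 highest for 20 genes and replicate 3 lowest for 22.

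**Figure D1:**
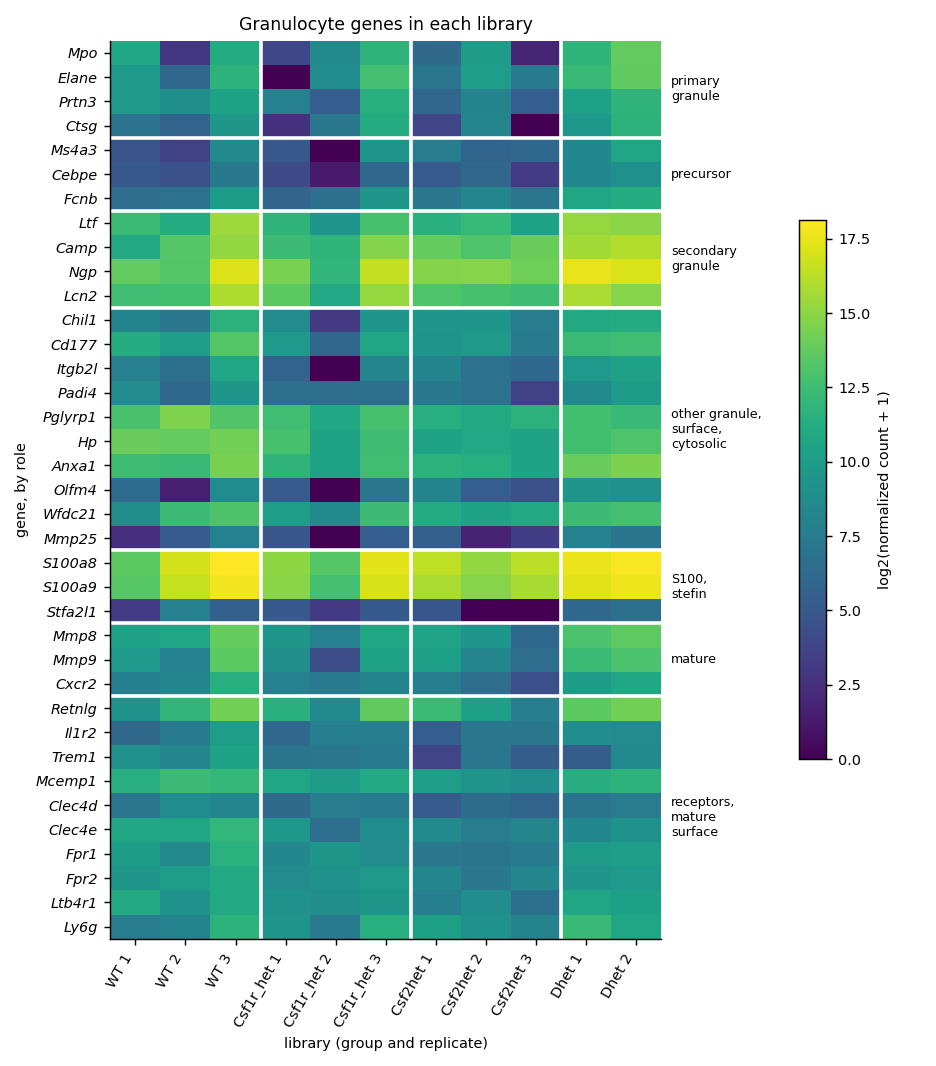
Level of the 37 granulocyte genes (rows, grouped by role) in the 11 libraries (columns, grouped by genotype), coloured by log2(normalized count + 1). WT replicate 3, Csf1r_het replicate 3 and the 2 Dhet libraries are bright in most rows, and S100a8, S100a9 and Ngp are bright in all columns.

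Many of the genes lie next to each other. On mm10, Prtn3 and Elane stand together on chromosome 10 (79874476 to 79883174 and 79886247 to 79888215), S100a8 and S100a9 on chromosome 3 (90668978 to 90670035 and 90692632 to 90695721), and Clec4d and Clec4e on chromosome 6 (123262111 to 123275265 and 123281789 to 123289870). Fpr1 and Fpr2 are neighbours on chromosome 17 (17876471 to 17883940 on the reverse strand and 17887824 to 17893952 on the forward strand), and Camp, Ngp and Ltf lie on chromosome 9 between 109847379 and 111042767. Reads of close copies may be shared between Fpr1, Fpr2 and their relatives and between Stfa2l1 and other stefins, which makes those values uncertain. Prtn3 overlaps Plppr3 and Il1r2 overlaps Gm16894 on the opposite strand, and the labels do not say whether the libraries kept strand.

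The C/EBP and ETS transcription factors, among them C/EBPα, C/EBPε and PU.1, are known regulators of granulocyte genes, and PU.1 is also a regulator of microglia. Promoter entries from RefSeq (GRCm38.p6, the assembly of mm10) were matched by symbol for 33 of the 37 genes, and 26 of them covered the 150 bases just upstream of the gene. Searched on both strands, the C/EBP-type motif TTNNGNAA was found in 15 of the 26 windows (57.7%), against 22.8% of 27025 promoter windows of the same length. The ETS-type motif GAGGAAGT was found in 5 of 26 (19.2%) against 1.68%, the MYB-type motif AACNGNC in 7 of 26 (26.9%) against 17.7%, and TATAAA in 4 of 26 (15.4%) against 8.08%. These are counts of letters in a window and say nothing about binding. Member windows were moved upstream where the deposited gene began before the RefSeq start (93 bases for S100a8). The 27025 windows were not moved, so the sets were not placed alike. The windows of 5 genes are shown because they are the genes that led in level (S100a8 and S100a9), in range (Elane) or were neighbours that were both lower in Csf2het (Fpr1 and Fpr2). Capitals mark matches to the C/EBP-type or ETS-type motif on either strand, and each is written 5′ to 3′ on the strand of its gene. The window of Elane is chr10:79886097-79886246 (forward strand) with 1 ETS-type match, and that of S100a8 is chr3:90668828-90668977 (forward) with 1 of each type. The S100a9 window is chr3:90695722-90695871 (reverse) and the Fpr1 window is chr17:17883941-17884090 (reverse), each with 1 C/EBP-type match. The Fpr2 window is chr17:17887674-17887823 (forward) with 2 C/EBP-type matches.
Elane: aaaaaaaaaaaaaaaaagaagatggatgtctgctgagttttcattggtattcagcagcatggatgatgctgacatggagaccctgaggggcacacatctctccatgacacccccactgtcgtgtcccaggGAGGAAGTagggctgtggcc
S100a8: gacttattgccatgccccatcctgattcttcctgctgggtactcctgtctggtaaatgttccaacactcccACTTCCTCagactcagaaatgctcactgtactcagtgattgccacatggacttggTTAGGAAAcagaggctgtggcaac
S100a9: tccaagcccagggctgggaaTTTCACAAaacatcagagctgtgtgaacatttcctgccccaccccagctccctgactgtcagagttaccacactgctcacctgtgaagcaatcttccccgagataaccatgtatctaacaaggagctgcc
Fpr1: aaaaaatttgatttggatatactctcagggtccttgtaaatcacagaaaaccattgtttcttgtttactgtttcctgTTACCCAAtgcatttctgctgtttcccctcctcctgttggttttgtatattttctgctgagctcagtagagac
Fpr2: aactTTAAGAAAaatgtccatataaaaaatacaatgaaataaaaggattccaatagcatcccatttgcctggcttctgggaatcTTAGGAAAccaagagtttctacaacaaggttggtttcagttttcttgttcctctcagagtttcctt

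The primary granule genes Elane, Mpo and Ctsg had the widest ranges of the 37 on the log2 scale, while Prtn3 had a ratio of 85.9 between its highest and lowest library. Mpo, which encodes myeloperoxidase, had 1831, 6.79 and 2219 normalized counts in WT, 14.5, 416 and 3543 in Csf1r_het, 74.1, 1028 and 2.73 in Csf2het, and 3629.9 and 14124 in Dhet. Elane, which encodes neutrophil elastase, had 892, 66 and 3407 normalized counts in WT, 0, 461 and 6781 in Csf1r_het, 136, 1089.8 and 178 in Csf2het, and 4869 and 12985 in Dhet. Each was high in WT replicate 3, Csf1r_het replicate 3 and both Dhet libraries and low in WT replicate 2, Csf1r_het replicate 1 and Csf2het replicates 1 and 3. The count of 0 for Elane in Csf1r_het replicate 1 allows up to 3.96 normalized counts (3 reads, counting error only). Prtn3, which encodes proteinase 3, had 859, 511 and 1459.6 normalized counts in WT, 242, 41.5 and 2718 in Csf1r_het, 63.6, 278 and 40.9 in Csf2het, and 1299 and 3513 in Dhet. Ctsg, which encodes cathepsin G, had 118, 52.4 and 764 normalized counts in WT, 5.28, 149.7 and 2351 in Csf1r_het, 12.5, 298 and 0 in Csf2het, and 807 and 3287 in Dhet. The 0 for Ctsg in Csf2het replicate 3 allows up to 4.09. For Mpo, Elane and Ctsg every Dhet library lay above every WT library, whereas WT, Csf1r_het and Csf2het overlapped for these 3 genes. For Prtn3 the Dhet and WT groups overlapped, and every Csf2het library lay below every WT library.

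Markers of precursors followed the same libraries. Ms4a3, a membrane protein of granulocyte-monocyte progenitors, had 23.8, 10.7 and 360.3 normalized counts in WT, 31.7, 0 and 749 in Csf1r_het, 189.8, 55.1 and 72.2 in Csf2het, and 357 and 1579 in Dhet. Cebpe, the transcription factor that directs secondary granule genes, had 32.1, 21.4 and 159 normalized counts in WT, 17.2, 1.48 and 72.6 in Csf1r_het, 36.5, 62.7 and 8.18 in Csf2het, and 348 and 546 in Dhet. Fcnb, which encodes the lectin ficolin B of myeloid precursors, had 87.3, 106 and 952 normalized counts in WT, 59.4, 97.8 and 784 in Csf1r_het, 146, 326 and 140.3 in Csf2het, and 1587 and 2411 in Dhet. For Cebpe and Fcnb both Dhet libraries lay above all WT libraries, and for Ms4a3 Dhet replicate 1 fell within the WT range. Ms4a3 was at 0 in Csf1r_het replicate 2, which allows up to 4.45 normalized counts (3 reads).

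The secondary granule genes were abundant in all 11 libraries. Ltf, which encodes the iron-binding lactoferrin, had 5170.1, 2218 and 45673 normalized counts in WT, 3542, 688 and 7200.3 in Csf1r_het, 2909, 4503 and 1478 in Csf2het, and 38264 and 32335 in Dhet. Camp, which encodes the antimicrobial cathelicidin, had 2079, 10397 and 36470.2 normalized counts in WT, 5373, 3744 and 28184 in Csf1r_het, 14455, 9077 and 17074 in Csf2het, and 49860.2 and 67085 in Dhet. Both were high in Dhet, and for Camp every Dhet library exceeded every WT library, while for Ltf WT replicate 3 was above both. Ngp, which encodes neutrophilic granule protein, had 14105, 9956 and 146449 normalized counts in WT, 23221, 3971 and 90621 in Csf1r_het, 27606, 29393 and 18083 in Csf2het, and 191304 and 142610.0 in Dhet. Lcn2, which encodes the siderophore-binding lipocalin 2, had 6032, 6459 and 59449.6 normalized counts in WT, 11788, 1920.3 and 39019 in Csf1r_het, 8899.5, 7261 and 5654 in Csf2het, and 58559 and 28663 in Dhet. WT replicate 3 lay within or above the Dhet range for Ltf, Ngp and Lcn2, whereas WT replicates 1 and 2 lay far below it. The 3 Csf2het libraries lay close together for Camp, Ngp and Lcn2 and within the range of WT for Camp and Ngp.

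S100a8 and S100a9 encode the subunits of calprotectin, the main cytosolic protein of neutrophils, which monocytes also make. S100a8 had 11860.1, 124512 and 285184 normalized counts in WT, 33493, 10476 and 167621 in Csf1r_het, 83831, 38023 and 82630.0 in Csf2het, and 197892 and 248159 in Dhet. S100a9 had 10823, 95739.9 and 227575 normalized counts in WT, 31077, 6671 and 134543 in Csf1r_het, 57496, 29217 and 55701 in Csf2het, and 165555 and 203911 in Dhet. The partners kept the same order of libraries within each group, and no group was separate from WT for either. Stfa2l1, a cysteine protease inhibitor of the stefin family, had 8.35, 239 and 45.9 normalized counts in WT, 33, 7.41 and 34.7 in Csf1r_het, 28.2, 0 and 0 in Csf2het, and 72.1 and 103 in Dhet. It was highest in WT replicate 2 and at 0 in Csf2het replicates 2 and 3, where 3 reads would be worth 1.44 and 4.09 normalized counts.

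Mature neutrophil genes were high in WT replicate 3 and both Dhet libraries, and far lower in Csf1r_het replicate 3. Mmp8, which encodes neutrophil collagenase, had 1321, 1582 and 14953 normalized counts in WT, 759, 253 and 1775 in Csf1r_het, 1515, 734 and 64 in Csf2het, and 8292 and 12946 in Dhet. Mmp9, which encodes gelatinase B, had 845, 252 and 12124 normalized counts in WT, 492, 19.3 and 1411 in Csf1r_het, 1206, 338 and 88.6 in Csf2het, and 5138 and 8115 in Dhet. Cxcr2, the chemokine receptor that draws neutrophils out of the marrow, had 221, 313 and 2831 normalized counts in WT, 232, 185 and 283 in Csf1r_het, 212, 90 and 20.4 in Csf2het, and 1012 and 1754 in Dhet. WT replicate 3 was the highest of the 11 libraries for all 3 genes, and the Dhet libraries came next. For Cxcr2 every Csf2het library lay below every WT library, with WT replicate 1 (221) just above Csf2het replicate 1 (212), and for Mmp8 and Mmp9 each heterozygous group overlapped WT.

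The 3 classes were compared as the mean over each class's genes of log2((normalized count + 1) per kilobase of exon), as a description with no test. Secondary granule genes (Ltf, Camp, Ngp, Lcn2) exceeded primary granule genes (Mpo, Elane, Prtn3, Ctsg) in every library, by 2.89 (Dhet replicate 2) to 9.30 (Csf1r_het replicate 1). The primary class had a level of 8.02 ± 2.46 (SD, n = 3) in WT, 7.01 ± 4.08 (n = 3) in Csf1r_het, 5.55 ± 2.73 (n = 3) in Csf2het and 11.23 ± 1.21 (n = 2) in Dhet. Its single libraries ran from 2.98 to 12.08, and Dhet replicate 1 (10.37) lay above every library of the other groups except Csf1r_het replicate 3 (11.13). The secondary class had 12.88 ± 1.97 in WT, 12.21 ± 1.90 in Csf1r_het, 12.35 ± 0.27 in Csf2het and 15.13 ± 0.22 in Dhet. WT replicate 3 (15.15) lay between the 2 Dhet libraries (14.97 and 15.29). The mature class (Cxcr2, Mmp8, Mmp9) had 8.84 ± 2.22 in WT, 6.84 ± 1.62 in Csf1r_het, 6.20 ± 1.96 in Csf2het and 10.56 ± 0.49 in Dhet. Leaving out 1 library turned the direction of some of these differences. Csf2het minus WT in the secondary class was -0.53 with all libraries, 0.60 without WT replicate 3 and from -1.14 to -0.38 without any other library of the 2 groups. Csf1r_het minus WT in that class was -0.67 with all libraries, 0.46 without WT replicate 3 and 0.29 without Csf1r_het replicate 2. In the primary class Csf1r_het minus WT was -1.01 with all libraries, 1.0 without Csf1r_het replicate 1, 0.02 without WT replicate 3 and -3.07 without Csf1r_het replicate 3. The mature class kept its direction whichever library was left out, with Csf2het minus WT from -3.52 to -1.37 and Csf1r_het minus WT from -2.72 to -0.73.

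Within a library, mature genes stood lower against secondary granule genes in the single heterozygotes than in WT. The difference, mature minus secondary per kilobase, was -3.93, -4.43 and -3.75 in WT and -5.06, -5.22 and -5.83 in Csf1r_het. In Csf2het it was -4.59, -5.90 and -7.96, and in Dhet it was -5.08 and -4.06. All 3 Csf1r_het and all 3 Csf2het libraries thus lay below all 3 WT libraries, Csf2het replicate 1 and WT replicate 2 by the narrowest gap, while Dhet replicate 1 lay below the WT range and Dhet replicate 2 within it. The primary class showed no such order: secondary minus primary was 2.99, 6.54 and 5.06 in WT, 9.30, 3.37 and 2.93 in Csf1r_het, 7.41, 4.01 and 8.99 in Csf2het and 4.91 and 2.89 in Dhet. Libraries of all groups overlapped in that difference.

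**Figure D2:**
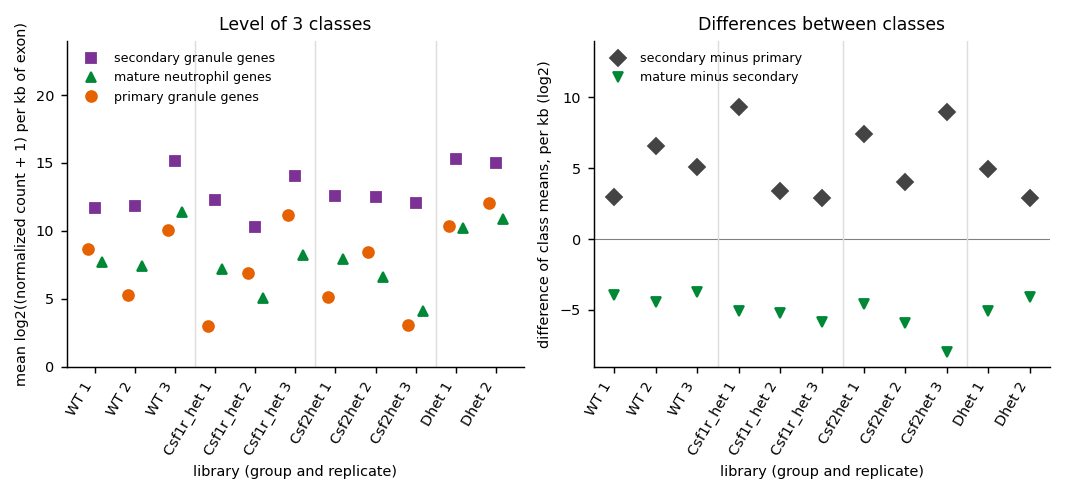
Left, mean log2 level per kilobase of exon of the primary granule (circles), secondary granule (squares) and mature (triangles) genes in each library. Right, the difference of class means on the same scale. The mature-minus-secondary difference lies between -4.43 and -3.75 in WT and between -7.96 and -4.59 in the 6 single-heterozygote libraries, while the secondary-minus-primary difference ranges widely in each group.

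Among the other granule, surface and cytosolic genes, Hp and Pglyrp1 had all WT libraries at the top. Hp, which encodes the haemoglobin-binding haptoglobin, had 17224, 13739 and 19353 normalized counts in WT, 7419, 1385 and 5822 in Csf1r_het, 1373, 1919 and 1363 in Csf2het, and 6428 and 9019 in Dhet. Pglyrp1, which encodes the peptidoglycan-binding protein of granules, had 7807, 25282 and 9531 normalized counts in WT, 5939, 1828 and 7227 in Csf1r_het, 2736, 2083 and 3228 in Csf2het, and 6209 and 4711 in Dhet. For both genes, as for the receptor gene Clec4e, every Csf1r_het, Csf2het and Dhet library lay below every WT library. Of all genes tested, 12.8%, 14.3% and 12.6% lay wholly below WT in Csf1r_het, Csf2het and Dhet. Anxa1, which encodes the formyl peptide receptor ligand annexin A1, had 5909, 4739 and 21837 normalized counts in WT, 3605, 1396 and 5941 in Csf1r_het, 3155, 2583 and 1443 in Csf2het, and 15468 and 24047 in Dhet. For Anxa1 the Csf2het libraries lay below the WT libraries, while the Dhet libraries lay above all Csf1r_het and Csf2het libraries and above at least 2 of the 3 WT libraries.

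The remaining members of that group were highest in WT replicate 3 or in Dhet. Cd177, a neutrophil surface glycoprotein, had 2437, 1121 and 9814 normalized counts in WT, 898, 62.2 and 1603 in Csf1r_het, 678, 900.1 and 178 in Csf2het, and 5187 and 6149 in Dhet. Every Csf2het library lay below every WT library for Cd177, and every Dhet library lay above every library of both single heterozygotes. Chil1 (a chitinase-like protein) ranged from 7.41 to 3208 normalized counts, Itgb2l (an integrin beta chain) from 0 to 1627 and Padi4 (the enzyme that citrullinates histones in extracellular traps) from 10.9 to 981. Olfm4 (olfactomedin 4, made by a subset of neutrophils) ranged from 0 to 734, Wfdc21 (a small secreted protein) from 400.1 to 8688 and Mmp25 (a membrane-anchored metalloproteinase) from 0 to 263. Itgb2l, Olfm4 and Mmp25 were at 0 in Csf1r_het replicate 2, where 3 reads would be worth 4.45 normalized counts. Olfm4 was the only 1 of these 6 for which both Dhet libraries exceeded all WT libraries.

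Several receptors and surface proteins had their lowest group in Csf2het. Mcemp1, a membrane protein of myeloid cells, had 2684, 5609.8 and 4351 normalized counts in WT, 1719, 1002 and 2200.4 in Csf1r_het, 1101, 659 and 465 in Csf2het, and 2551 and 3347 in Dhet. Trem1, a receptor that amplifies neutrophil and monocyte activation, had 540.1, 327 and 1488 normalized counts in WT, 127, 141 and 174 in Csf1r_het, 12.5, 139.8 and 39.5 in Csf2het, and 39 and 407 in Dhet. Clec4e, which encodes Mincle, a receptor for microbial glycolipids, had 1876, 1648 and 4038 normalized counts in WT, 807, 93.3 and 444 in Csf1r_het, 407, 192 and 308 in Csf2het, and 349.9 and 600.3 in Dhet. For all 3 genes every Csf1r_het and every Csf2het library lay below every WT library. In Dhet, Clec4e was below all WT libraries, and Mcemp1 and Trem1 overlapped WT.

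The chemoattractant receptors had a related pattern. Fpr1, a receptor for bacterial formyl peptides, had 1026, 364 and 3049 normalized counts in WT, 343, 784 and 436 in Csf1r_het, 153, 129.8 and 172 in Csf2het, and 1029 and 1095 in Dhet. Fpr2, its relative that also binds annexin A1, had 759, 1073 and 2062 normalized counts in WT, 430.3, 597 and 871 in Csf1r_het, 335, 152 and 329.7 in Csf2het, and 709 and 878 in Dhet. Ltb4r1, the receptor for leukotriene B4, had 2033, 602 and 2076 normalized counts in WT, 609.9, 487 and 760.1 in Csf1r_het, 231, 480.2 and 102 in Csf2het, and 1719.6 and 1266 in Dhet. For these 3 genes every Csf2het library lay below every WT library and every Dhet library lay above every Csf2het library. Clec4d, the neighbour of Clec4e, had 134, 453 and 317 normalized counts in WT, 76.6, 196 and 173 in Csf1r_het, 36.5, 84.7 and 57.2 in Csf2het, and 128 and 195 in Dhet, and it too was lower in every Csf2het library than in any WT library. Retnlg (resistin-like gamma) ranged from 214 to 19659.7 normalized counts, Il1r2 (the decoy receptor for interleukin 1) from 40.7 to 1134 and Ly6g (the antigen by which mouse neutrophils are usually sorted) from 173 to 4641. Retnlg, Il1r2 and Ly6g overlapped between WT and each heterozygous group.

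**Figure D3:**
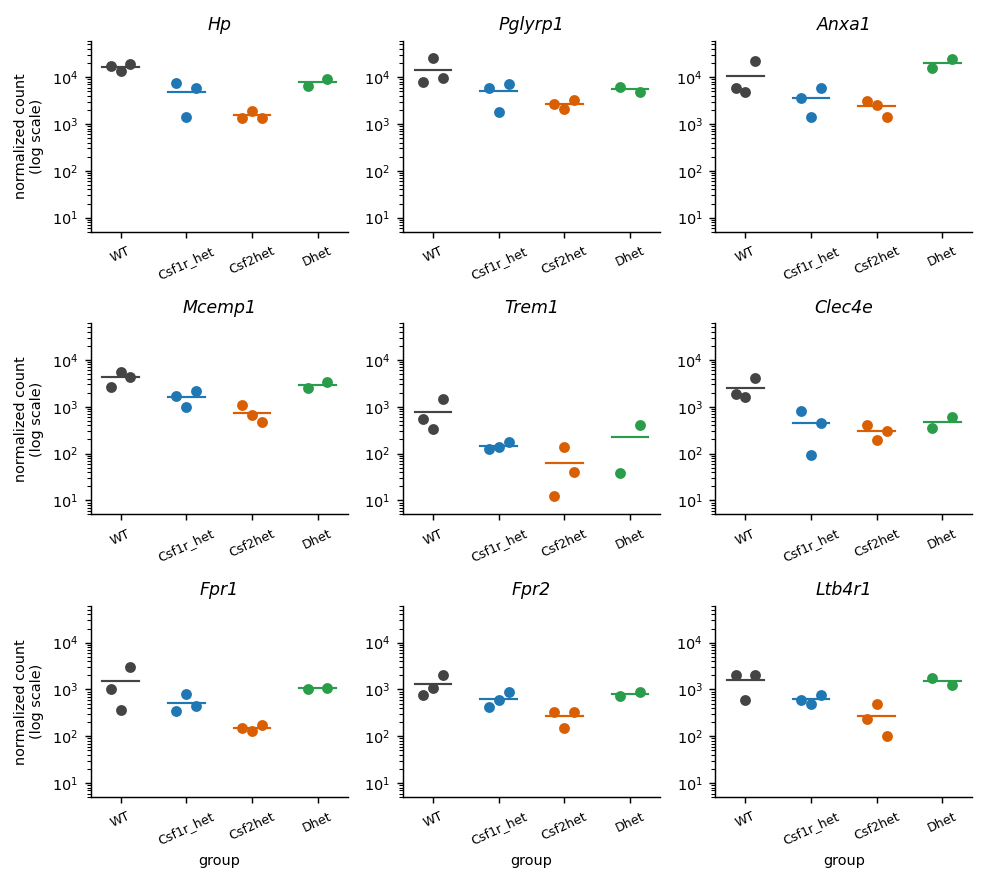
Normalized count (log axis) of 9 genes in each library by group; points are libraries and lines are group means. The 9 genes are the 8 called lower in Csf2het against WT and Anxa1, called for the interaction. The Csf2het points lie below the WT points in all 9 panels, which follows in part from this choice. Of all 37 genes 13 (35.1%) had every Csf2het library below every WT library, against 14.3% of all genes tested. The Dhet points lie above the Csf2het points except in Trem1 and Clec4e.

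In Csf2het 8 of the 37 genes fell against WT, and they were receptors and surface proteins together with Hp and Pglyrp1. Hp had a log2 fold change of -3.44 (SE 0.50, limma adjusted p = 0.00246), 10.8-fold lower, and Mcemp1 had -2.53 (SE 0.41, limma adjusted p = 0.00473), 5.78-fold lower. The other 6 were Fpr2 (-2.21), Fpr1 (-2.79), Ltb4r1 (-2.60), Clec4e (-3.00), Pglyrp1 (-2.23) and Trem1 (-3.91), with SEs of 0.47 to 0.99 and limma adjusted p-values from 0.0215 to 0.0466. No member rose. Of all 13223 genes tested 2.84% were lower by the same rule, against 21.6% of the members. The median log2 fold change was -1.90 over the 37 genes and -0.02 over all genes tested, and 33 of the 37 were below 0, as were 51.1% of all genes tested.

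By role, 6 of 10 receptors and mature surface genes and 2 of 10 other granule, surface and cytosolic genes fell. None of the 4 primary granule, 3 precursor, 4 secondary granule, 3 S100 and stefin or 3 mature genes passed the test. The median log2 fold change was -2.75 over the primary granule genes, -0.53 over the secondary granule genes and -2.92 over the mature genes. Prtn3 (-3.24, SE 1.18), Mmp8 (-2.92, SE 1.12) and Cxcr2 (-2.96, SE 0.94) had differences within the range of those that passed. Their limma adjusted p-values were 0.166, 0.190 and 0.109. Prtn3 and Mmp8 had larger errors than any gene that passed, and Cxcr2 a larger error than all but Trem1 (SE 0.99). In 13 of the 37 genes (35.1%) every Csf2het library was below every WT library, against 14.3% of all genes tested. The 8 calls became 3 without WT replicate 1, 3 without WT replicate 3, and 2, 4 and 3 without Csf2het replicates 1, 2 and 3. Over all genes tested, 482 calls became 172, 529, 173, 228 and 219 in the same fits. Hp and Mcemp1 were called in all 11 fits that left out a library.

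Markers of monocytes, which also express several of these receptors, moved with this comparison. Of 11 monocyte markers 10 fell in Csf2het, among them Treml4, Ccr2 and Ly6c2, with a median log2 fold change of -2.81. Their summed level was 89770.5 to 185825 normalized counts in WT, 57229 to 65562 in Csf1r_het, 16828 to 25315 in Csf2het and 67581 to 73788 in Dhet, and no monocyte marker was at 0 in any library. Of 10 microglial markers 3 rose in Csf2het (Siglech, P2ry12 and Sall1), and their sum was 118116 to 309573 in WT and 454808 to 592216 in Csf2het. The part of monocytes or of microglial share in the falls of the granulocyte genes was not tested.

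In Csf1r_het no member of the 37 passed the test against WT, in limma or in the edgeR quasi-likelihood test, while DESeq2 called Clec4e and Hp. Over all genes 1.32% were called by limma in either direction, 0.73% by edgeR and 6.58% by DESeq2. The log2 fold change was below 0 for 36 of the 37 genes (55.6% of all genes tested), the exception being Ly6g. By the ratio of mean normalized counts, however, Csf1r_het stood above WT for Ctsg (2.68), Ms4a3 (1.98), Elane (1.66) and Prtn3 (1.06). By that ratio it stood below WT for the others, Ly6g (0.94) among them, so the direction of these named genes depended on the measure. The median was -1.33, against -0.12 over all genes tested. An unadjusted limma p under 0.05 was found for 7 of the 37 genes and for 2139 of all 13223 genes tested. Those nearest to the threshold were Clec4e (-2.84, SE 0.67, limma adjusted p = 0.0590), Hp (-2.09, SE 0.50, limma adjusted p = 0.0599), Mcemp1 (-1.37, SE 0.41, limma adjusted p = 0.126) and Pglyrp1 (-1.53, SE 0.52, limma adjusted p = 0.178). In 5 of the 37 genes (Mcemp1, Clec4e, Pglyrp1, Hp and Trem1) every Csf1r_het library was below every WT library, 13.5% against 12.8% of all genes tested. Without WT replicate 2 limma called 1 member and 439 genes over all, where it called 174 over all with every library. All 11 monocyte markers were below 0 in this comparison (median -1.38, 2 called lower) and all 10 microglial markers above 0 (median 0.80, none called), and their part was not tested. Among the 3 Csf1r_het libraries only replicate 3 was from a mouse of 21 months, and with 21-month libraries alone the primary granule level was 3.12 above that of WT on the log2 scale, in place of -1.01.

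In Dhet no member passed the test against WT, in limma or edgeR, and DESeq2 called Clec4e. Over all genes 0.529% were called by limma in either direction, 0.19% by edgeR and 2.75% by DESeq2. The members lay on both sides of 0: 30 of 37 were above 0 (50.9% of all genes tested), with a median of 1.57 against 0.02 over all genes. An unadjusted limma p under 0.05 was found for 5 of the 37 and for 1329 of all 13223 genes tested. All 14 primary, precursor, secondary and mature genes were above 0, with medians of 3.51, 3.23, 2.36 and 1.72, and Fcnb (3.23, SE 1.11, limma adjusted p = 0.339) and Camp (2.65, SE 0.99, limma adjusted p = 0.387) had the lowest p among them. Clec4e (-2.34, SE 0.75, limma adjusted p = 0.299) and Hp (-1.13, SE 0.56, limma adjusted p = 0.521) were below 0. Both Dhet libraries exceeded all WT libraries for 7 members (Mpo, Elane, Olfm4, Fcnb, Camp, Ctsg and Cebpe), 18.9% against 13.5% of all genes tested. They were below all WT libraries for 3 members (Clec4e, Pglyrp1 and Hp), 8.11% against 12.6%.

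Against the single heterozygotes, Dhet had higher values for nearly all members, but no limma call. Dhet libraries exceeded all Csf2het libraries for 35 of the 37 genes (94.6%, against 16.7% of all genes tested), the exceptions being Clec4e and Trem1. The median log2 fold change was 3.02, against 0.03 over all genes. An unadjusted limma p under 0.05 was found for 22 of the 37 genes and for 1083 of all 13223 genes tested. Anxa1 (3.08, SE 0.67, limma adjusted p = 0.199), Mcemp1 (2.07, SE 0.45, limma adjusted p = 0.199) and Ltb4r1 (2.71, SE 0.65, limma adjusted p = 0.248) had the lowest p. Limma and edgeR called 0 of the 37 genes, where they called 0.0227% and 0.0219% of all genes, and DESeq2 called 7, where it called 1.31% of all genes. Against Csf1r_het, Dhet libraries were higher than all others for 23 genes (62.2%, against 18.5%), with a median of 2.64. An unadjusted limma p under 0.05 was found for 16 of the 37 genes and for 1390 of all 13223 genes tested. Limma, edgeR and DESeq2 called 0 of the 37 genes, where they called 0.00756%, 0.0146% and 0.899% of all genes. These comparisons share the Dhet libraries, and those against WT share the 3 WT libraries, so they are not independent of each other.

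**Figure D4:**
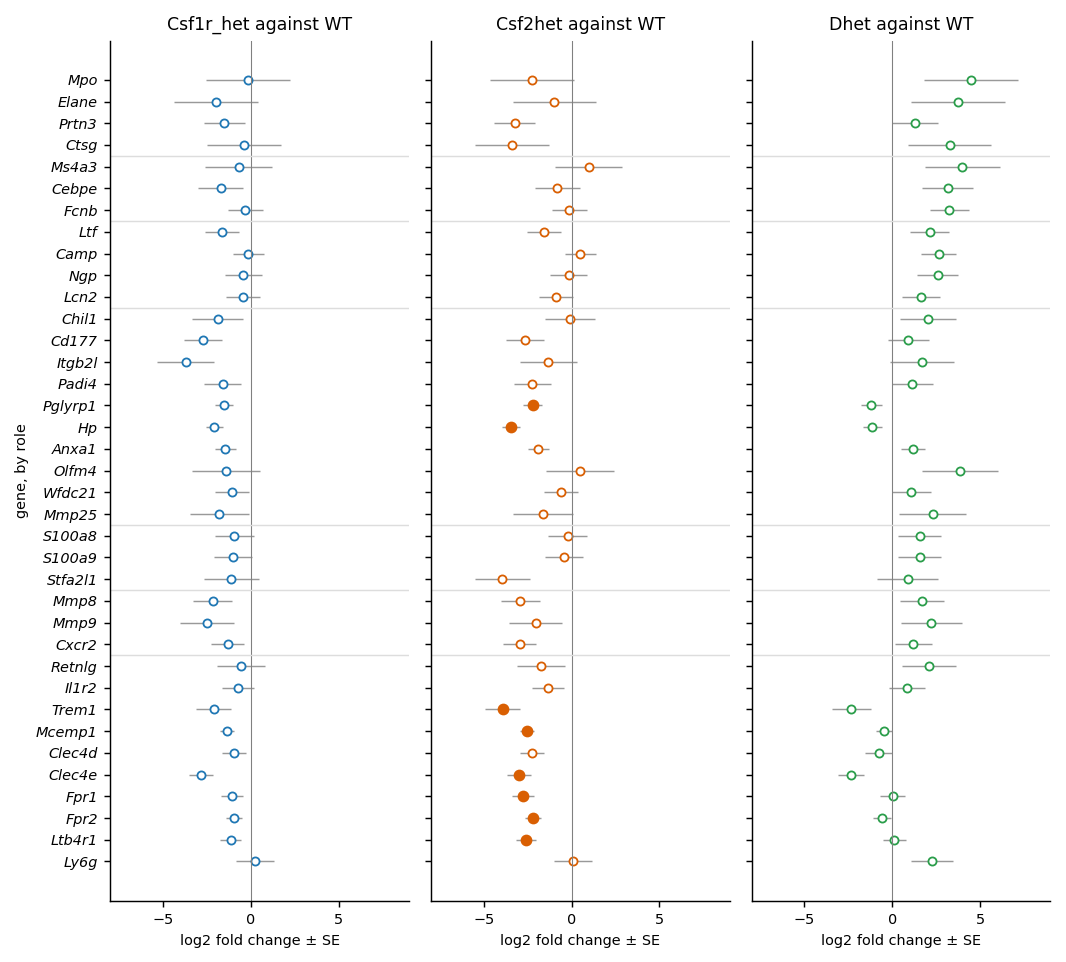
Log2 fold change with its standard error for the 37 genes, in role order, in Csf1r_het, Csf2het and Dhet against WT. Filled points passed limma at an adjusted p of 0.05. The 8 filled points are all in Csf2het and all below 0, and most Dhet points lie above 0.

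The interaction asked whether the Dhet level differed from the sum of the separate Csf1r and Csf2 effects on the log2 scale. It was above 0 for all 37 genes (54.2% of all genes tested), with a median of 4.03 against 0.15 over all genes tested. Hp (4.40, SE 0.75, limma adjusted p = 0.0154), Mcemp1 (3.44, SE 0.61, limma adjusted p = 0.0175), Anxa1 (4.53, SE 0.90, limma adjusted p = 0.0252) and Ltb4r1 (3.87, SE 0.87, limma adjusted p = 0.0424) passed, 10.8% of the members against 1.2% of all genes called higher. The Dhet libraries held more of each of these 4 genes than every Csf2het library and, for Mcemp1, Anxa1 and Ltb4r1, more than every Csf1r_het library. Fpr1 (3.90, SE 0.93, limma adjusted p = 0.0545), Mmp8 (6.81, SE 1.68, limma adjusted p = 0.0602), Cd177 (6.29, SE 1.59, limma adjusted p = 0.0653) and Cxcr2 (5.49, SE 1.40, limma adjusted p = 0.0682) were just outside the threshold. The interaction was also above 0 for all 11 monocyte markers, with a median of 2.88 and 5 called higher, and below 0 for all 10 microglial markers, with a median of -1.16 and none called. The part of either in the values of the granulocyte genes was not tested. Over all genes limma called 244 for the interaction with every library, 896 without WT replicate 2 and 61 without WT replicate 1. It called 103 without Csf1r_het replicate 1, 71 without Csf2het replicate 1 and 86 without Csf2het replicate 3. With the replicate number as a block it called 14 over all genes and 0 members. The count of members called was 0 without Dhet replicate 1, 0 with only 21-month libraries, which left 1 library each in Csf1r_het and Dhet, 10 without WT replicate 2, and 2 without each of WT replicate 1, Csf1r_het replicate 1, Dhet replicate 2, Csf2het replicate 1 and Csf2het replicate 3. With Csf1r_het replicate 2 and Dhet replicate 2 both left out, an alternative chosen after the data were seen, it was 1 for the interaction and 8 for Csf2het against WT.

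Other genes of granulocyte biology, 54 tested genes outside the 37, were counted in the same way. Of these, 20 fell and 1 rose in Csf2het, with a median log2 fold change of -1.61, where 375 of all 13223 genes fell and 107 rose, with a median of -0.02. Among the falls with the lowest p were Cybb (-2.83, limma adjusted p = 0.000286), the NADPH oxidase chain, Gsr (-2.79, limma adjusted p = 0.00124), glutathione reductase, and Fcgr4 (-2.14, limma adjusted p = 0.00213), an Fc receptor. The gene that rose was Cd63, a granule membrane tetraspanin, which was named after its value was seen. In Csf1r_het 6 fell, Cybb and Gsr among them, and 1 rose, where 117 of all genes fell and 57 rose. In Dhet 3 fell and none rose, where 66 of all genes fell and 4 rose, and for the interaction 11 were higher and 1 lower, where 159 of all genes were higher and 85 lower. Some of the 54 genes are on the monocyte list as well, so these counts are not independent of it.

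Upstream factors of the lineage mostly did not pass. The G-CSF receptor Csf3r had -0.75, -0.13 and 0.16 as its log2 fold changes against WT in Csf1r_het, Csf2het and Dhet, and Cebpa had -0.98, -0.32 and -0.81, none of which passed. Cebpb had -1.90, -1.99 and -3.09 and Cebpd -0.34, -0.41 and 0.52, and these did not pass either. Spi1, which encodes PU.1, fell in Csf2het (-1.15, limma adjusted p = 0.0391) and had -0.79 in Csf1r_het and -0.68 in Dhet. Of 6 neutrophil-attracting and activating factors tested, Il1b, which encodes interleukin 1 beta, fell in Csf2het (-2.78, limma adjusted p = 0.00376) and in Dhet (-2.62, limma adjusted p = 0.0338), and the others did not pass in these comparisons.

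Markers of other marrow and blood cells were read beside the granulocyte genes. Of 20 proliferation genes none passed in any of the comparisons by limma. All 20 had a log2 fold change above 0 in Dhet against WT, with a median of 1.91. Of the 20, 11 had an unadjusted limma p under 0.05, as did 1329 of all 13223 genes tested. The summed level of the 20 genes was 18107 to 26071 normalized counts in Dhet and at most 13736 in any other library. No progenitor (6 tested), B-lineage (7), erythroid (8), mast cell, basophil and eosinophil (7) or T and NK cell (6) marker passed in the 6 comparisons. Summed progenitor markers were 919 to 3869 normalized counts in WT and 3770.3 to 4764 in Dhet. They were 1761 to 3163 in Csf1r_het and 2763 to 4702 in Csf2het. Summed B-lineage markers were 3379 to 10746 in WT and 3530.01 to 6115 in Dhet. They were 910 to 12761 in Csf1r_het and 1341 to 3269 in Csf2het. The part of these cells, of blood carried over in the sort and of the sex of Dhet replicate 2 in the granulocyte values was not tested.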

How the data were processed

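The submitters' processing notes name kallisto 0.43.1, DESeq2 and the build mm10 as what the authors used. Each deposited signal behaves as a read count divided by a size factor of its library and is called a normalized count. Their DESeq2 version and any gene filter are not given in the sources used here. Divided by the value of 1 read, 100% of the values were whole within 0.02 reads, which gave each library's depth. The 38 members and the other lists were chosen with earlier results of these data known.

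Tests used log2(normalized count + 1), which understates the change of low genes. Genes with a mean of at least 10 were tested (13223, with 1516 left out) in a single fit of the 4 groups with limma 3.58.1 in R 4.3.3, with a trended prior and 7 residual and 5.9 prior degrees of freedom. The 6 contrasts were adjusted by Benjamini-Hochberg over all genes tested, with a threshold of 0.05. Every member may be named, and of each other list at most the 4 called genes with the lowest p, and Csf3r, Cebpa, Cebpb, Cebpd and Spi1 whatever their values. A gene that this rule took is not reported here. Class levels, per kilobase of merged GENCODE exons, had no test. Alternatives were edgeR 4.0.16 (13703 genes) and DESeq2 1.42.0 on the recovered reads, pseudocounts, filters, median centring, only the groups compared, the replicate block, only 21-month libraries and leaving out libraries. The fit was tested on simulated data with the same dispersion for every gene. That setting does not cover genes as variable between libraries as the granulocyte genes were in WT and Csf1r_het.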

Additional observations from a re-analysis of the deposited data

Results flagged for a closer look

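The effect of the Csf2 genotype differed between mice with and without a deleted Csf1r copy for 4 granulocyte genes, by the interaction term of the limma fit. The interaction was 4.40 for Hp (limma adjusted p = 0.0154), 3.44 for Mcemp1 (limma adjusted p = 0.0175), 4.53 for Anxa1 (limma adjusted p = 0.0252) and 3.87 for Ltb4r1 (limma adjusted p = 0.0424), all on the log2 scale. For Hp and Mcemp1 Csf2het had log2 fold changes of -3.44 and -2.53 against WT, and both passed. Dhet had 0.96 and 0.91 against Csf1r_het, and neither passed (limma adjusted p = 0.506 and 0.484). Of the 11 fits that left out a library, Hp and Mcemp1 were called in 10, all but the fit without Dhet replicate 1, Anxa1 in 4 and Ltb4r1 in 2. With only 21-month libraries, which left 1 library each in Csf1r_het and Dhet, none of the 4 was called. With the replicate block none of the 4 was called either. The interaction was above 0 for all 37 granulocyte genes and also for all 11 monocyte markers (median 2.88, 5 called), and below 0 for all 10 microglial markers (median -1.16).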

How the results depend on the processing

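Counts of granulocyte genes called moved with the test and the samples. DESeq2 called 2 genes in Csf1r_het against WT (limma 0), 13 in Csf2het against WT (limma 8), 1 in Dhet against WT (limma 0), 7 in Dhet against Csf2het (limma 0) and 14 for the interaction (limma 4). In Csf2het against WT the count was 3 with only the groups compared and 3 with only 21-month libraries, where the interaction gave 0. With Csf1r_het replicate 2 and Dhet replicate 2 both left out, Dhet against Csf2het gave 1 and the interaction 1. Leaving out each library in turn gave 0 to 1 calls in Csf1r_het, 2 to 8 in Csf2het and 0 to 10 for the interaction. With 21-month libraries alone, Csf1r_het minus WT was 3.12 for primary granule genes (-1.01 with all ages) and 1.18 for secondary granule genes (-0.67 with all ages). With the replicate block Csf2het against WT gave 4 calls and the interaction 0, so that none of its 4 calls passed there. Deviations from the group means of libraries with the same number had r from -0.21 to 0.06 over 15 pairs, 0 above 0.1. With so few libraries in a group, deviations within it are tied to each other. These values therefore cannot decide whether the numbers pair the libraries. Over all genes limma called 174, 482, 70, 1, 3 and 244 in the 6 comparisons (Csf1r_het, Csf2het and Dhet against WT, Dhet against Csf1r_het and Csf2het, interaction), DESeq2 828, 1238, 361, 118, 179 and 995, edgeR 100, 458, 26, 2, 3 and 201, and the replicate block 28, 256, 48, 0, 0 and 14. With 21-month libraries these were 0, 250, 132, 0, 53 and 0, and with only the groups compared 0, 259, 0, 0 and 0 without the interaction. Over all genes, leaving out each library in turn gave 0 to 439 calls in Csf1r_het and 172 to 676 in Csf2het. For the interaction it gave up to 896. The cause of these moves was not tested. For the single genes and comparisons whose fold changes were followed through the alternatives, 77 of 260 alternative values of called results missed the threshold. Of uncalled results 29 of 674 values passed it, and none of those followed turned direction. In Csf1r_het against WT only Clec4e, Hp, Mcemp1 and Pglyrp1 were followed, the genes nearest to the threshold. The weaker differences there, such as those of the primary granule genes, were not followed, so their direction may turn. Class levels did turn: leaving out each library in turn gave Csf1r_het minus WT from -3.07 to 1.0 (primary) and from -1.60 to 0.46 (secondary), and Csf2het minus WT from -1.14 to 0.60 (secondary).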
